A study of Homo sapiens with 6 samples.

Results

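The expression of 10 genes of bone morphogenetic protein (BMP) signalling was examined in HGC-27 cells, an established line of undifferentiated human gastric carcinoma. They are the ligands BMP2 and BMP4, the secreted antagonist GREM1, the target genes ID1 to ID4, and the feedback inhibitors SMAD6, SMAD7 and BAMBI, and all 10 were found by symbol among the 58735 genes of the deposited table. The genes were selected by their pathway role with the FPKM difference of BMP4 and ID2 between these same groups already known, so their own differences are given here as a description and no p-value is printed for them. Total RNA was sequenced from 3 shACAT2 libraries, of cells carrying pSIH-H1-Puro with a short hairpin RNA against ACAT2 (genotype label: ACAT2 knockdown), and from 3 shNC libraries, of cells with pSIH-H1-Puro-shNC (genotype label: WT). Both groups had the vector for 24 h and then puromycin for 7 days. Which of the study's ACAT2 hairpins was used, and whether the selected cells were a pool or a clone, is not given in the labels.

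BMP ligands bind a pair of type I and type II receptor kinases, which phosphorylate SMAD1, SMAD5 and SMAD9. These move to the nucleus with SMAD4 and switch on a small set of direct targets, among them the ID genes, whose proteins lack a DNA-binding region and hold E-proteins away from DNA. SMAD6, SMAD7 and BAMBI are switched on by the same signal and dampen it, and secreted proteins such as gremlin and noggin trap the ligand outside the cell. In the stomach and gut, BMP signalling is known for its part in epithelial differentiation.

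Upstream sequence is shown for 4 genes, because letters that SMAD proteins are known to bind differ among genes that were higher together. RefSeq on GRCh38.p14 gave 14 windows of 250 bases before a transcription start for 9 of the 10 genes, with no entry for BMP2. Both strands were searched for GGCGCC and GGAGCC, which are GC-rich SMAD letters, and for GTCTG, a SMAD box. Matches are in capitals, those on the other strand reading GGCTCC or CAGAC, no base lay in 2 motifs, and each run leaves out annotated exons. The BMP4 run lies inside the span of the gene in the deposited table (given below), so it is upstream of this RefSeq start only. The runs lie at chr14:53955051-53955300 on the minus strand (BMP4, the most upstream of 3 RefSeq starts), chr20:31605039-31605282 on the plus strand (ID1), chr15:66701986-66702227 on the plus strand (SMAD6) and chr10:28677271-28677341 on the plus strand (BAMBI).
BMP4: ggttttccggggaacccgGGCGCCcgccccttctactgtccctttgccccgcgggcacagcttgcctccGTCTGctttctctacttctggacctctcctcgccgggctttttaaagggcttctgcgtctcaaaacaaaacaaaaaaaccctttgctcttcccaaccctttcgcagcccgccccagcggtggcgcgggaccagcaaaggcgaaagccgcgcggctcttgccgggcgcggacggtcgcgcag
ID1: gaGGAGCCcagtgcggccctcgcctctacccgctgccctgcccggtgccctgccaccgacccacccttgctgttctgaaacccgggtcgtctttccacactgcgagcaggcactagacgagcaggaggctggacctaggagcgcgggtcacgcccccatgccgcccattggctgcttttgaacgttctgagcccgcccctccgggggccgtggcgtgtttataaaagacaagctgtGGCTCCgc
SMAD6: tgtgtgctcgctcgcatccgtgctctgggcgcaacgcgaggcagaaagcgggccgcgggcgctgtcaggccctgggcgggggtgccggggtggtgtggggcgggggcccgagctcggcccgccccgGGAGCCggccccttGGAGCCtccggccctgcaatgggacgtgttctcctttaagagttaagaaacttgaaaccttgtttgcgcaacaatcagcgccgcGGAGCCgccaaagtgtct
BAMBI: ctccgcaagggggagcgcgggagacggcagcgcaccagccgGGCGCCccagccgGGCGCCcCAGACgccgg

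Over the whole 250 bases, BAMBI had 3 GGCGCC, 4 GGAGCC and 2 GTCTG matches in a window of 81.2% G and C, SMAD6 had 3 GGAGCC matches and ID1 had 2. The BAMBI window runs on to 28677520, past the printed run and into the span of its gene. All of its GGAGCC matches lie in that part. The BMP4 run holds 1 GGCGCC and 1 GTCTG match. ID2 had none of the 3 motifs, in a window that also lies inside the span of its gene in the deposited table. ID3 had 1 GGAGCC and 1 GTCTG match, in a window that likewise lies inside the span of its gene. Of the 14 windows, 3 held GGCGCC, 7 GGAGCC and 9 GTCTG. Among all 35116 windows of the table, 16.4% held GGCGCC, 30.6% GGAGCC and 38.0% GTCTG, and 63.2% held any of them. The median window of the table was 58.0% G and C. A match describes the letters and says nothing of binding, and a window with no match says only that the letters are not in it.

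The values are FPKM, in which fragments are divided by the gene's length and by a measure of library size, so levels can be compared between genes. The libraries held from 14086416 to 16067486 fragments assigned to genes. ACAT2, the targeted gene, had a mean of 12.9 ± 1.25 FPKM in the controls and of 5.90 ± 0.388 FPKM after knockdown (SD, n = 3 each). By chi-square per gene, shNC-2 and shNC-3 lay far closer to each other (1.73) than any other pair within a group (12.1 to 46.0). The labels call the cells gastric cancer cells, but the epithelial markers were near 0: KRT18, KRT19 and EPCAM did not pass 0.212 FPKM in any library, CDH1 was at most 1.15 FPKM, none of the 5 epithelial markers had a mean of 1 FPKM over the 6 libraries, and their summed level was 0.505 to 0.830 in shNC and 1.44 to 2.22 FPKM in shACAT2 libraries. Of 6 fibroblast markers, 5 had a mean of at least 1 FPKM (COL1A1, COL1A2, COL3A1, DCN and LUM). The summed fibroblast level moved with the groups, from 304 to 338 FPKM in shNC to 442 to 535 FPKM in shACAT2 libraries, and its part in the results that follow was not tested. Endothelial markers summed to at most 0.569 FPKM and leukocyte markers to at most 1.85 FPKM. Of the 3 erythroid markers, HBB was at most 0.051 FPKM while HBA1 and HBA2 carried a sum of 6.15 to 31.7 FPKM in shNC and 8.13 to 15.2 FPKM in shACAT2 libraries. In bulk RNA, more cells of a kind and more RNA per cell cannot be told apart.

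Of the 10 genes, 8 reached a group mean of 1 FPKM, the level required for the test, and did so in both groups. All 8 were higher on average in shACAT2 than in shNC cells, where 7234 of all 13832 genes tested had a positive log2 difference. BMP4 showed the greatest difference of the 8, with a mean 2.85 times that of shNC cells, followed by BMP2 at 2.15 and ID2 at 2.10 times. BAMBI, SMAD7, SMAD6 and ID1 had ratios of 1.70, 1.63, 1.54 and 1.52, and ID3 of 1.37. GREM1 and ID4 were close to 0 in all 6 libraries. In 7 of the 8 genes the 3 shACAT2 values lay above the 3 shNC values, ID3 being the exception. Of all 13832 genes tested, 16.2% were separated in this direction.

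**Figure D1:**
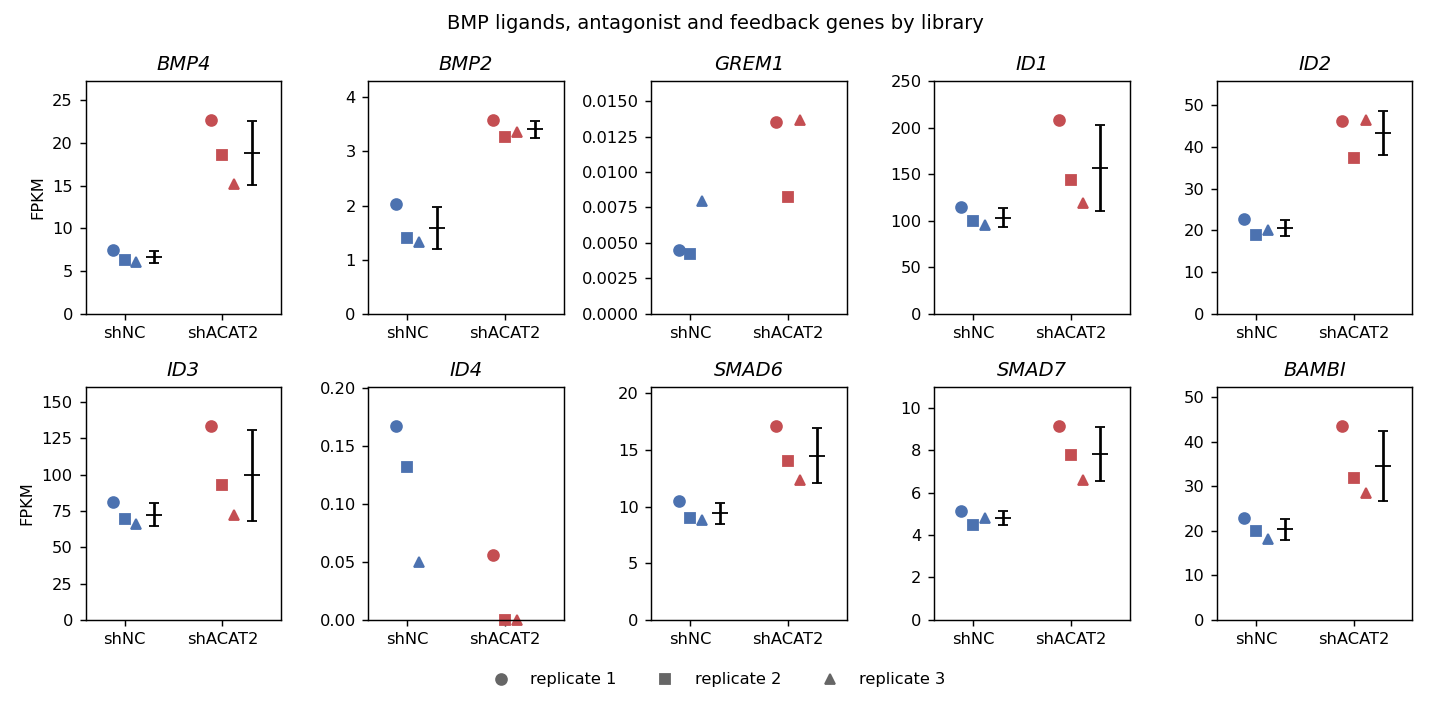
FPKM of the 10 genes (vertical axes from 0, a scale of its own for each gene) in the 3 shNC (blue) and 3 shACAT2 (red) libraries, with the mean and SD in black for the 8 genes over the filter. All genes over the filter but ID3 have their red points above the blue ones, and GREM1 and ID4 reach at most 0.167 FPKM.

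BMP4 (ENSG00000125378, GRCh38 chromosome 14, 53949736 to 53958761, minus strand) encodes a secreted ligand that acts on the cell itself and its neighbours. It stood at 7.40, 6.26 and 6.10 FPKM in shNC-1 to shNC-3 and at 22.7, 18.5 and 15.2 FPKM in shACAT2-1 to shACAT2-3, with 313 to 1062 fragments behind each value. Every shACAT2 library was above every shNC library, and the gap was wider than the SD within either group, 0.709 FPKM for shNC and 3.77 FPKM for shACAT2 (n = 3 each). On the log2(FPKM + 1) scale, which understates the change of low genes, the difference was 1.37 (standard error 0.16, 95% interval 1.00 to 1.74).

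BMP2 (ENSG00000125845, chromosome 20 from 6767664 to 6780280, plus strand), the closest relative of BMP4, was the lowest of the 8. The controls shNC-1 to shNC-3 had 2.03, 1.40 and 1.32 FPKM, and shACAT2-1 to shACAT2-3 had 3.58, 3.27 and 3.37 FPKM, with 82 to 196 fragments behind each value. The groups did not overlap, and the shACAT2 libraries lay close together (SD 0.159 FPKM, n = 3). The difference was 0.78 on the log2 scale (standard error 0.13). BMP4 exceeded BMP2 by 3.64 to 4.62 times in the shNC and 4.51 to 6.33 times in the shACAT2 libraries, so the ratios of the groups overlapped.

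Among the other BMP ligands tested, BMP5 had 11.2 ± 1.61 FPKM in the controls and 13.2 ± 2.24 FPKM after knockdown, and BMP7 had 13.8 ± 1.00 and 15.3 ± 3.71 FPKM (SD, n = 3 each). Neither was called (limma adjusted p = 0.448 and 0.714). In each shNC library, BMP5 and BMP7 were both above BMP4. In shACAT2-2 and shACAT2-3, BMP4 was above BMP5, which had 15.4 and 13.4 FPKM, and above BMP7, which had 14.3 and 12.2 FPKM. In shACAT2-1, BMP4 was also the highest, beside 10.9 FPKM of BMP5 and 19.4 FPKM of BMP7.

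GREM1 (ENSG00000166923, chromosome 15 from 32717974 to 32745107, plus strand) encodes gremlin, which binds BMP2 and BMP4. It was at the edge of detection, with 1 fragment in shNC-1, 1 in shNC-2 and 2 in shNC-3, and with 3, 2 and 3 in the shACAT2 libraries. The 14606 bases of the gene make this at most 0.0137 FPKM, where 3 fragments, the limit that a count of 0 allows, equal 0.0119 to 0.0137 FPKM (counting error only). A difference was not detectable at this depth. GREM1 shares 188 exon bases with AC090877.2 on the opposite strand, and the strand setting of the counting is not stated.

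ID1 and ID3 were the most abundant of the 10 genes in every library. ID1 (ENSG00000125968, chromosome 20 from 31605283 to 31606515, plus strand), a target gene of BMP in many cell types, was at 115, 99.7 and 95.6 FPKM in shNC-1 to shNC-3 and at 208, 143 and 119 FPKM in shACAT2-1 to shACAT2-3. The groups did not overlap, but the shACAT2 libraries differed from each other by more (SD 46.2 FPKM, n = 3) than shACAT2-3 differed from the highest shNC library. The log2 difference was 0.56 (standard error 0.21), and 0.34 without shACAT2-1.

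ID2 (ENSG00000115738, chromosome 2 from 8678845 to 8684453, plus strand) stood at 22.6, 19.0 and 20.2 FPKM in shNC-1 to shNC-3 and at 46.1, 37.3 and 46.5 FPKM in shACAT2-1 to shACAT2-3. The gap between the groups was wider than the spread in either, and ID2 was the gene of the 8 in which shACAT2-3 was the highest library. The log2 difference was 1.03 (standard error 0.13). ID2 shares 38 of its 2205 exon bases with ID2-AS1 on the opposite strand, which had a mean of 0.788 FPKM over the 6 libraries.

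ID3 (ENSG00000117318, chromosome 1 from 23557918 to 23559794, minus strand) was at 81.3, 69.6 and 66.3 FPKM in shNC-1 to shNC-3 and at 134, 92.9 and 71.9 FPKM in shACAT2-1 to shACAT2-3. The groups overlapped, since shACAT2-3 was below shNC-1. The log2 difference was 0.41, with a 95% interval from −0.12 to 0.95, and 0.18 without shACAT2-1. ID4 (ENSG00000172201, chromosome 6 from 19837386 to 19840684, plus strand) had 6, 5 and 2 fragments in the shNC libraries and 2, 0 and 0 fragments in the shACAT2 libraries, and 3 fragments equal 0.0742 to 0.0853 FPKM, so no fold is given.

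The make-up of the ID pool is given as a description only. The difference of ID2 was known when the genes were chosen, and a higher ID2 share lowers the others. Summed over the 4 genes, ID expression was 197 ± 19.7 FPKM in the controls and 299.8 ± 78.7 FPKM after knockdown (SD, n = 3 each). ID2 made up 10.1% to 11.1% of this sum in the shNC and 11.9% to 19.6% in the shACAT2 libraries, and ID3 36.4% to 37.1% and 30.3% to 34.4%. ID1 kept a share of 52.5% to 52.9% in the shNC and 50.2% to 53.7% in the shACAT2 libraries. The ratio of ID1 to ID3 was 1.41 to 1.44 in shNC and 1.54 to 1.66 in shACAT2 libraries.

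The E-protein genes, whose products the ID proteins bind, gave no call among 3 tested. Since 3.3% of all genes tested were called higher and 1.81% lower, nothing is read from this. TCF3 had 99.7 ± 8.52 FPKM in the controls and 99.7 ± 20.4 FPKM after knockdown (SD, n = 3 each), with a log2 difference of −0.02 with a 95% interval from −0.41 to 0.38. TCF12 had 27.4 ± 5.50 and 25.5 ± 5.64 FPKM, and TCF4 3.28 ± 0.434 and 3.02 ± 0.787 FPKM. Their limma adjusted p were 0.962, 0.821 and 0.754.

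The inhibitory SMADs compete with the receptor-activated SMADs for receptors and for SMAD4. SMAD6 (ENSG00000137834, chromosome 15 from 66702228 to 66782848, plus strand), which acts mainly on BMP signals, was at 10.5, 8.98 and 8.79 FPKM in shNC-1 to shNC-3 and at 17.1, 14.1 and 12.3 FPKM in shACAT2-1 to shACAT2-3. SMAD7 (ENSG00000101665, chromosome 18 from 48919853 to 48952052, minus strand), which also answers to TGF-beta, was at 5.15, 4.46 and 4.78 FPKM in the shNC and at 9.15, 7.78 and 6.58 FPKM in the shACAT2 libraries. In both genes every shACAT2 value lay above every shNC value. The log2 differences were 0.57 (standard error 0.14) for SMAD6 and 0.60 (standard error 0.13) for SMAD7. SMAD6 exceeded SMAD7 by 1.84 to 2.04 times in shNC and 1.81 to 1.88 times in shACAT2 libraries, so their ratio overlapped between the groups.

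BAMBI (ENSG00000095739, chromosome 10 from 28677342 to 28682939, plus strand) encodes a receptor without a kinase domain that occupies the place of a type I receptor. It was at 22.9, 19.9 and 18.1 FPKM in shNC-1 to shNC-3 and at 43.5, 31.8 and 28.5 FPKM in shACAT2-1 to shACAT2-3. The groups did not overlap, and shACAT2-1 stood apart from the other shACAT2 libraries. The log2 difference was 0.72 (standard error 0.18).

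**Figure D2:**
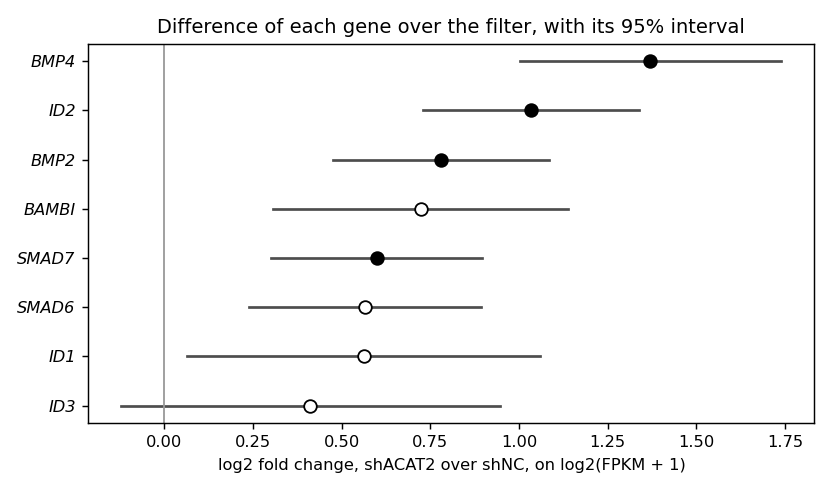
Log2 fold change of shACAT2 over shNC on the log2(FPKM + 1) scale for the 8 genes over the filter (points), with the 95% interval of limma (lines). Filled points are the genes called, BMP4, ID2, BMP2 and SMAD7, and the intervals run from 1.00 to 1.74 for BMP4 at the top and from −0.12 to 0.95 for ID3 at the bottom.

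Ordered by level per length, the shNC cells had ID1 at the top, then ID3, then ID2 at 20.6 ± 1.87 FPKM and BAMBI at 20.3 ± 2.42 FPKM, which did not differ beyond their spread. SMAD6 followed at 9.42 ± 0.936 FPKM, BMP4 at 6.59 ± 0.709 FPKM, SMAD7 at 4.80 ± 0.347 FPKM and BMP2 at 1.59 ± 0.389 FPKM (SD, n = 3 each). In shACAT2 cells the order of BMP4 and SMAD6 was the other way round, with BMP4 at 18.8 ± 3.77 FPKM and SMAD6 at 14.5 ± 2.42 FPKM. This held within each of the 6 libraries. ID1 lay above 98.4% and BMP2 above 28.5% of the genes tested by mean FPKM.

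In a limma fit of all 13832 genes tested, 4 of the 8 genes passed an adjusted p of 0.05, all higher in shACAT2 cells: BMP4, ID2, BMP2 and SMAD7. Of all genes tested, 3.3% were called in that direction, 456 genes against 250 called lower. After upper-quartile scaling these numbers were 436 and 365, and after scaling to the library total 486 and 399. By the threshold of the study, a log2 fold change above 1 with an unadjusted p under 0.05, BMP4 and ID2 were called, where 0.983% of the genes tested were called higher. The pseudocount of 1 FPKM bears on this for low genes, and BMP2 had a log2 difference of 1.08 with a pseudocount of 0.1 and of 1.08 with limma-voom. Since the genes were chosen with this contrast known, nothing is read from the counts. The median log2 difference was 0.66 over the 8 genes and 0.02 over all genes tested.

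With the replicate number as a block, 6 of the 8 genes were called, SMAD6 and BAMBI being added, while the share of all genes called higher went to 7.67%. The calls also depended on single libraries. Without shNC-2 or without shNC-3, limma called 0 of the 8, while 0.548% and 0.353% of all genes were called higher. Without shNC-1, BMP2, BMP4 and ID2 were called, without shACAT2-2 BMP4 and ID2, and without shACAT2-3, 6 of the 8 genes. Of all genes tested, 0.718%, 0.681% and 3.32% were called higher in these fits. All 8 differences kept their direction in each of these fits.

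The libraries of a group stood in a like order across the genes. Of the 8 genes, 7 were highest in shACAT2-1 among the shACAT2 libraries and 6 were lowest in shACAT2-3, while all 8 were highest in shNC-1 among the controls. These orders are on the deposited FPKM, and how many of all genes had them was not counted. Fragments on genes divided by those behind the FPKM scaling came to 0.979, 0.930 and 0.932 in shNC-1 to shNC-3. In shACAT2-1 to shACAT2-3 this was 1.045, 0.966 and 0.939. The median deviation of the 8 genes from the mean of the 6 libraries was 0.64 in shACAT2-1, 0.28 in shACAT2-2 and 0.10 in shACAT2-3 on the log2 scale, and −0.17, −0.38 and −0.45 in shNC-1 to shNC-3. The median over all genes tested was 0.06 in shACAT2-1 and between −0.02 and 0.02 in the other libraries. After scaling to the library total, the 8 genes had 0.53, 0.28 and 0.14 in shACAT2-1 to shACAT2-3 and all genes between −0.03 and 0.02. In shACAT2-3, 36466 genes had a fragment, against 25337 to 27196 in the other libraries, and its part in the lower values of that library was not tested.

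**Figure D3:**
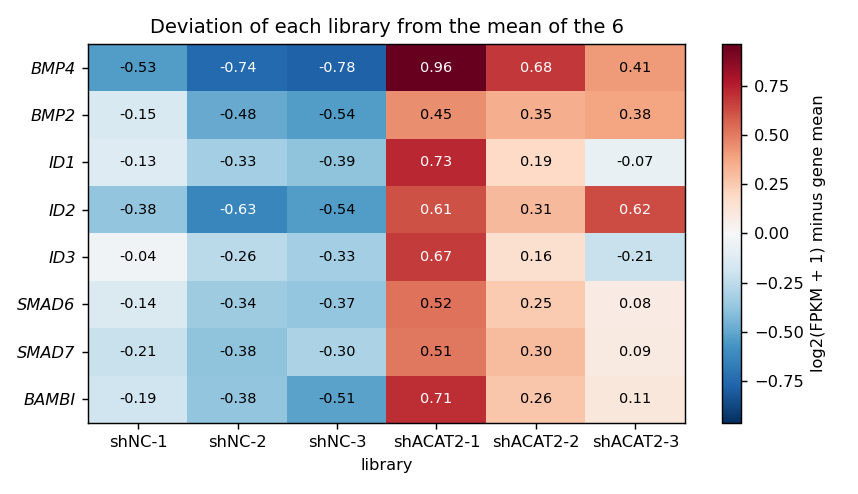
Deviation of log2(FPKM + 1) in each library from the gene's mean over the 6 libraries, for the 8 genes over the filter (rows; red above the mean, blue below). BMP4 ranges from −0.78 in shNC-3 to 0.96 in shACAT2-1, and in shACAT2-3 ID1 and ID3 are below their mean, at −0.07 and −0.21.

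The genes most like BMP4 by Pearson correlation of log2(FPKM + 1) over the 6 libraries were EHD2 (r = 0.999), SFXN3, AJUBA, L1CAM and SIDT2 (r = 0.998 each). EHD2 stood at 9.11, 8.05 and 7.73 FPKM in the shNC and at 19.9, 17.4 and 15.6 FPKM in the shACAT2 libraries. The likeness is a description over 6 points that fall into the 2 groups. Of the other genes described here, SMAD7 came closest (r = 0.984, place 128 among the genes tested), while ID3 was at place 2157 (r = 0.782).

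To see whether the rest of the pathway moved as well, 87 further genes in 7 lists were followed. Of these, 66 were tested, and in shACAT2 cells 9 were called higher and 1 lower, against 3.3% and 1.81% of all genes tested. One of the 9, SOST, passed the filter through the shACAT2 group alone, which leaves 8. The median log2 difference over the 66 genes was 0.15. With the replicate number as a block, 15 were called higher and 1 lower, where all genes called higher went from 456 to 1061. FSTL1 was the one gene of the 10 called in each of the 15 fits tried. Without shNC-2, without shNC-3 or without shACAT2-2, it was the one gene called, without shNC-1 it was called with SNAI2, and without shACAT2-3 there were 14 genes called higher.

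None of the receptors and signalling SMADs was called, where 3.3% of all genes tested were called higher and 1.81% lower. Nothing is read from the absence of a call in lists this short. Of 8 receptors and co-receptors tested, 4 were higher and 4 lower, with limma adjusted p of 0.105 or above. The type I receptor genes BMPR1A, ACVR1 and BMPR1B had log2 differences of 0.24 (95% interval −0.10 to 0.58), 0.30 (0.06 to 0.55) and −0.07 (−0.39 to 0.24). For the type II receptors BMPR2, ACVR2A and ACVR2B they were −0.01, 0.01 and −0.07, with intervals that reached from −0.47 to 0.45 for BMPR2. ENG, which encodes the co-receptor endoglin, went from 17.1 ± 1.30 to 23.9 ± 3.73 FPKM (SD, n = 3 each, limma adjusted p = 0.105) and was called with the replicate block. SMAD1, SMAD5, SMAD9 and SMAD4 had log2 differences of −0.10, 0.24, 0.22 and 0.03 (limma adjusted p = 0.622, 0.536, 0.373 and 0.896). RUNX2, a partner of these SMADs, had −0.29 (limma adjusted p = 0.175).

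Of 15 secreted antagonists and modulators tested beside GREM1, 13 had a positive and 2 a negative log2 difference, with a median of 0.38. Among all 13832 genes tested, 7234 had a positive difference. Of the 15, 4 were called higher and 1 lower, beside 3.3% and 1.81% of all genes tested. Among the 13 over the filter in both groups, which leaves out SOST and 1 gene not called, 3 were called higher and 1 lower. FSTL1, a follistatin-like glycoprotein, rose from 20.1, 19.5 and 20.7 FPKM in shNC-1 to shNC-3 to 43.4, 44.9 and 45.3 FPKM in shACAT2-1 to shACAT2-3, a log2 difference of 1.11 (standard error 0.09, limma adjusted p = 0.00347). In FSTL1, unlike BMP4, shACAT2-1 was not the highest library.

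TWSG1, a BMP-binding protein that works with chordin, rose from 8.81 ± 0.454 to 16.3 ± 2.37 FPKM (SD, n = 3 each, limma adjusted p = 0.0194). SOST, which encodes sclerostin, had 0.199, 0.456 and 0.252 FPKM in the shNC libraries and 1.89, 1.47 and 2.00 FPKM in the shACAT2 libraries. It entered the test only through the group where it was high, so its call is not read as a result. NOG, which encodes noggin, had 11.8, 9.52 and 9.56 FPKM in the shNC and 28.3, 19.9 and 14.8 FPKM in the shACAT2 libraries. Its groups did not overlap and its log2 difference was 0.92 (standard error 0.22), but its limma adjusted p was 0.0644. It was called with the replicate block. DAND5, an antagonist of nodal and BMP signals, fell from 2.62, 2.59 and 2.56 FPKM to 1.35, 1.54 and 1.10 FPKM (log2 difference −0.63, limma adjusted p = 0.0282).

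Of 14 intracellular regulators, TOB1 alone was called, where 3.3% of all genes tested were called higher and 1.81% lower. Nothing is read from this count. TOB1, an antiproliferative protein that binds SMADs, rose by 0.70 on the log2 scale, with means of 13.3 ± 0.422 and 22.2 ± 0.370 FPKM (SD, n = 3 each, limma adjusted p = 0.0105). The ubiquitin ligase genes SMURF1 and SMURF2, whose products mark BMP SMADs for degradation, had 0.01 and −0.06 (limma adjusted p = 0.950 and 0.838).

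Of 16 further genes known to respond to BMP, all 16 had a positive log2 difference, as did 7234 of all 13832 genes tested. Of the 16, 4 were called higher and none lower, beside 3.3% and 1.81% of all genes tested. GATA3 passed the filter through the shACAT2 group alone, and the other 15 were over it in both groups. With upper-quartile scaling, with library-total scaling and with limma-voom 15 of the 16 were positive, as they were without shNC-2. Without shACAT2-1, 14 of the 16 were positive and the median was 0.38. Their median was 0.51, beside 0.02 over all genes tested, and in 11 the groups did not overlap, beside 16.2% of all genes. The list was written with the differences of BMP4 and ID2 known. MSX2, a homeobox factor and BMP target, was the most abundant of the 4 called genes, at 74.7, 64.6 and 62.7 FPKM in shNC-1 to shNC-3 and at 168, 129.6 and 121 FPKM in shACAT2-1 to shACAT2-3 (log2 difference 1.03, standard error 0.15, limma adjusted p = 0.0167). HES1, a repressor better known as a Notch target, rose from 3.07 ± 0.451 to 6.56 ± 1.30 FPKM (SD, n = 3 each, limma adjusted p = 0.0249). SNAI2 rose from 4.02 ± 0.512 to 6.97 ± 0.320 FPKM and TBX3 from 14.2 ± 0.961 to 20.9 ± 1.86 FPKM (SD, n = 3 each, limma adjusted p = 0.0179 and 0.0416). All 4 called genes had their highest shACAT2 value in shACAT2-1 and their lowest in shACAT2-3, though SNAI2 had 6.79 FPKM in shACAT2-2 and 6.78 FPKM in shACAT2-3. BMP4, ID1, ID3, SMAD6, SMAD7 and BAMBI also had this order, as did EHD2, which is in none of the lists. How many of all genes had it was not counted. The 12 genes not called had log2 differences between 0.04 for DLX1 and 0.63 for HEY2. With the replicate block HEY1, HEY2 and DLX3 were called as well, 7 of the 16, and HEY2 was also called after both scalings, with limma-voom and with a minimum of 10 fragments per library.

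**Figure D4:**
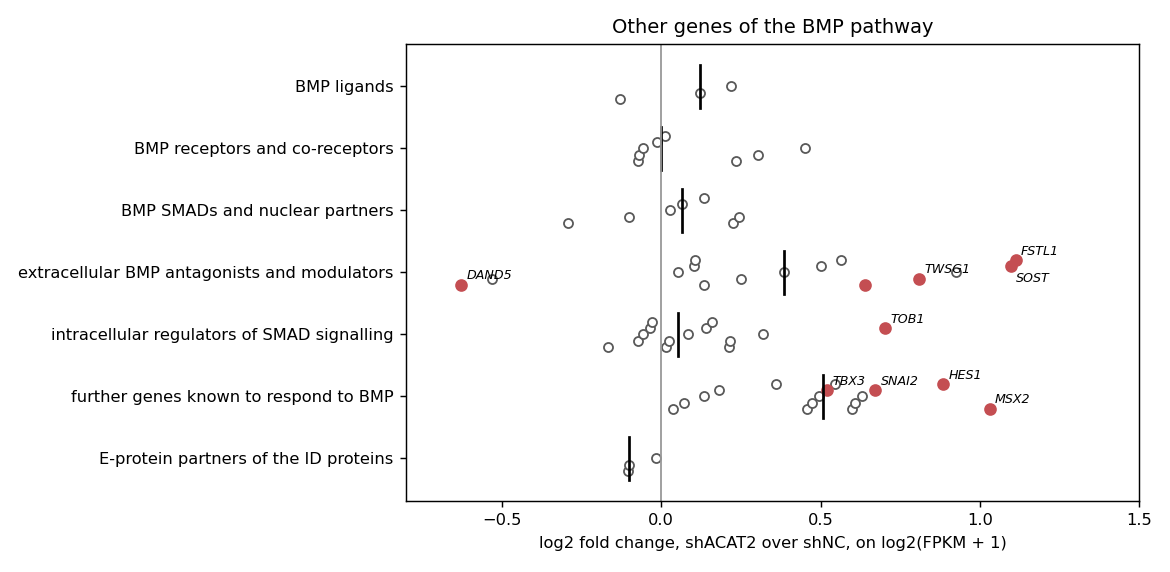
Log2 fold change of shACAT2 over shNC on the log2(FPKM + 1) scale for the 66 further pathway genes tested, by list (points; the short vertical lines are list medians, and vertical jitter has no meaning). Filled points passed a limma adjusted p of 0.05, those described in the text carry their names, with DAND5 the one on the left of 0, and the median is 0.51 for genes known to respond to BMP and −6e-04 for the receptors.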

How the data were processed

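RNA of HGC-27 cells was sequenced in 3 shNC and 3 shACAT2 libraries, grouped and numbered by the sample titles. The authors deposited FPKM values for 58735 genes. HISAT2 2.0.5, featureCounts 1.5.0-p3, DESeq2 1.20.0 and hg38 are named in the submitters' processing notes, without their roles, and the strand setting is not given in the sources used here. Each FPKM value times gene length was a whole multiple (within 0.05) of a step per library, in 100% of the values above 0, so fragments were read back. All 10 genes had the length and coordinates of GENCODE release 29.

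The test was limma-trend (R 4.3.3, limma 3.58.1) on log2(FPKM + 1), run on every gene whose mean reached 1 FPKM in shNC or in shACAT2, with Benjamini-Hochberg adjustment over all of them, and the code was tested on simulated data. Other steps used Python 3.11.15, pandas 2.3.3 and numpy 2.4.6. Standard errors, limits and intervals cover these libraries only. The genes, the pathway and marker lists and the tests were chosen with earlier results of these data known. Named were the 10 genes, ACAT2, every other pathway gene called (1 is counted but not reported here), the receptors and SMADs, and the 5 genes most like BMP4. NOG, RUNX2, ENG, SMURF1, SMURF2, HEY1, HEY2, DLX1, DLX3, GATA3, the ligands BMP5 and BMP7 and the E-proteins were added after their values were seen.

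Deviations from the group mean were correlated between libraries of equal number (0.445, 0.126 and 0.171), and the replicate block was tried for this reason. However, shNC-2 with shACAT2-3 gave 0.198 and shNC-3 with shACAT2-2 gave 0.141, so shNC-2 was not most like the library of its number. These values cannot decide whether the libraries were paired, and calls that need the replicate block rest on an assumed pairing. The series text calls the libraries of a group biological replicates. Alternatives were a pseudocount of 0.1, no filter, a minimum of 10 fragments per library, upper-quartile and library-total scaling, the replicate block, limma-voom on fragments, shNC-2 and shNC-3 averaged, each library left out, and the study's threshold.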

Additional observations from a re-analysis of the deposited data

How the results depend on the processing

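The log2 differences of the 8 genes kept their direction in all 15 fits, from 1.23 to 1.51 for BMP4, 0.98 to 1.14 for ID2, 0.71 to 1.08 for BMP2 and 0.18 to 0.62 for ID3. ID1 and ID3 were called in none of them. Of the 8 genes, 4 were called higher. The number was 2 by the study's threshold, 2 with no filter, 0 when shNC-2 and shNC-3 were averaged, and 0 to 6 with 1 library left out. It was 6 under a minimum of 10 fragments per library, with both scalings, with the replicate block and with limma-voom. The share of all genes called higher moved as well, from 3.3% in the main fit. It was 0.983% by the study's threshold, 0.362% with no filter, 0.455% with the 2 libraries averaged and 0.353% to 3.76% with 1 left out. Under the minimum of 10 fragments it was 4.21%, with upper-quartile and library-total scaling 3.15% and 3.51%, with the block 7.67% and with limma-voom 4.22%. Of the 66 other pathway genes, 9 were called higher and 1 lower. These became 3 and 0 by the study's threshold, 3 and 0 with no filter, 1 and 0 when shNC-2 and shNC-3 were averaged, and 15 and 1 with the replicate block. Called lower were 2 under the minimum of 10 fragments and 2 with limma-voom. With 1 library left out, 1 to 14 were called higher and 0 to 1 lower, the fewest without shNC-2, shNC-3 or shACAT2-2. The study's threshold adds a limit on the fold change. The fits with a library left out or averaged have fewer samples, yet 4 of the 8 genes were called without shACAT2-1 and 6 without shACAT2-3. Why the counts moved was not tested. GREM1 and ID4, at 0 to 6 fragments a library, were below what this depth can compare.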
